A study of Mus musculus with 21 samples.

Results

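Mouse aortic smooth muscle cells that already received an agonistic antibody to the lymphotoxin beta receptor (anti-LTBR) were compared with cells that received the same antibody together with tumour necrosis factor (TNF), so that the comparison shows what TNF added. The members were the arrays of these groups at 24 h that carry the numbers 1 to 3 in their titles, which are 6 of the 21 arrays of the series, 3 per group. Both groups were aortic smooth muscle cells of C57BL/6J males aged 10 to 12 weeks, grown in DMEM/F12 with 10% fetal calf serum and fed 24 h before the agonists were added. The anti-LTBR group received 10 µg/ml of the antibody, and the combination group received 10 µg/ml of the antibody and 1 ng/ml of TNFalpha. A second pair of groups from the same 24 h experiment, also 3 arrays each and numbered 1 to 3, gives the effect of TNF without the antibody: cells with 1 ng/ml of TNFalpha alone and control cells with PBS. Total RNA of each sample was hybridised to an oligonucleotide array with 45101 probe sets, and the values are signals in arbitrary units that were scaled to the same trimmed mean of 500 on every array. The labels do not say whether the numbers stand for separate cell isolations. The model fitted the array number as a block, which takes out differences between numbers. Each p-value therefore rests on the variation that remained within the fit. Whether the p-values hold for other cell isolations was not tested.

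TNF is a cytokine of activated macrophages and other leukocytes that signals through TNF receptor 1 and TNF receptor 2 and releases NF-kB dimers from their IkB inhibitors within minutes (the classical pathway). LTBR is a receptor of stromal cells that stabilises the kinase NIK and leads to processing of p100 into p52, which acts in the nucleus with RelB (the alternative pathway), and it also activates the classical pathway. Mesenchymal cells that receive both signals during the development of lymph nodes are called lymphoid tissue organizer cells and are known by their adhesion molecules and their lymphoid chemokines. The title of the series places the same question in smooth muscle cells of the artery wall.

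The cells carried the markers of smooth muscle on all 6 arrays. The signal of Acta2, smooth muscle actin, was 17865, 16995 and 18368 with anti-LTBR and 16442, 16629 and 19662 with the combination in the order of numbers 1, 2 and 3. Of 7 smooth muscle markers 5 lay above the median signal of their array on all 6 arrays, while Myocd and Des did not. Ptprc, which marks leukocytes, lay between 33.3 and 101.6 and Cd3e, which marks T cells, between 22.5 and 37.8, below the median signals of the arrays (108.5 to 123.1 with anti-LTBR and 109.1 to 137.9 with the combination). The summed signal of 17 macrophage and monocyte markers was 2513, 2077 and 5821 with anti-LTBR and 3038, 2302 and 8304 with the combination, higher with the combination in each of the 3 pairs. The pair numbered 3 also carried the highest signals of the macrophage gene Adgre1, at 484.0 and 553.5. The endothelial gene Pecam1 was highest on the pair numbered 1, at 369.9 and 375.5. Cartilage genes were present as well. Col2a1, a cartilage collagen gene, read 18982, 12123 and 16213 with anti-LTBR and 15635, 10336 and 14709 with the combination. The ratio of the 3′ to the 5′ signal of Actb, a sign of RNA quality, was 1.22 to 1.32 with anti-LTBR. With the combination it was 1.53, 1.27 and 1.27 in the order of numbers 1, 2 and 3. The part of these differences in the results below was not tested.

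Adding TNF raised 275 of 12285 tested genes (2.24%) and lowered 242 (1.97%), 517 genes in all (4.21%), with an adjusted p under 0.05 in limma fitted with the array number as a block. Each called gene had the same sign in all 3 pairs. The rises were larger than the falls: 82 genes rose at least 2-fold (0.667%), and 5 fell at least 2-fold (0.0407%). Of the 275 genes that rose, 203 had their combination arrays all above their anti-LTBR arrays, a pattern seen in 633 of all tested genes (5.15%). Of the 242 genes that fell, 78 had their combination arrays all below, a pattern seen in 442 of all tested genes (3.6%). The median log2 change of all genes was 0.01. The genes that rose had median log2 changes of 0.74, 0.69 and 0.51 in the pairs numbered 1, 2 and 3, and the genes that fell had −0.37, −0.39 and −0.38. The calls rest on the pairing: without the block 55 genes were called higher and 1 was called lower. They rest on the pair numbered 1 more than on the others: without it 50 genes were called higher and 41 lower, against 143 and 92 without number 2 and 188 and 108 without number 3.

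**Figure D1:**
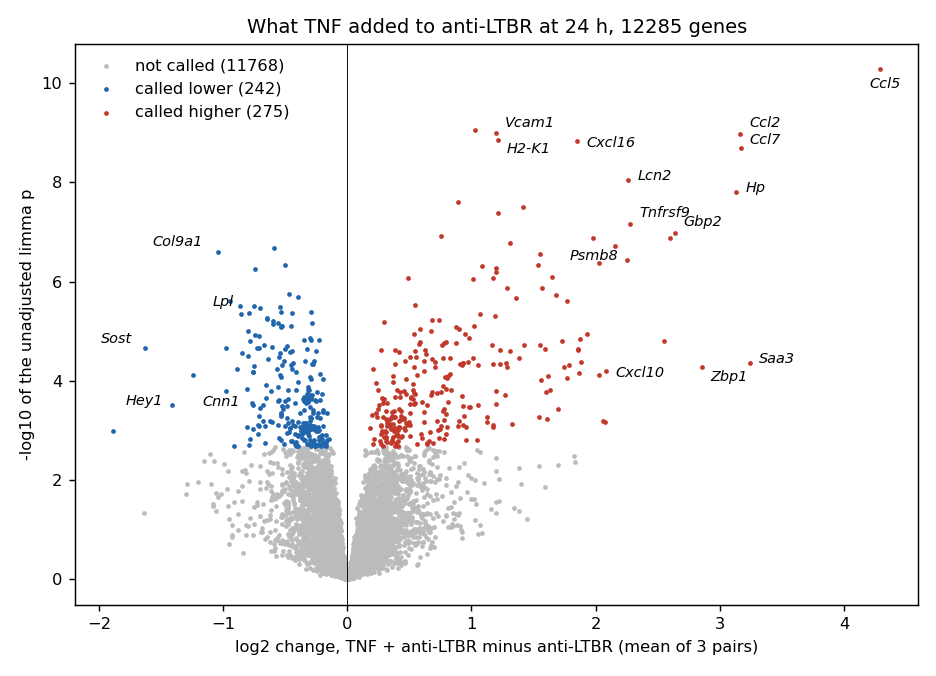
Log2 change by TNF in the presence of anti-LTBR (horizontal axis, mean of 3 pairs) against −log10 of the unadjusted limma p (vertical axis), 1 point per tested gene. The 275 genes called higher, in red, reach 4.29 at Ccl5, while the 242 genes called lower, in blue, end at −1.88 at Chdh.

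Signalling components came first, and the list counts here and below stand beside 2.24% higher and 1.97% lower among all tested genes. The receptors themselves passed no test. The log2 change of Tnfrsf1a, TNF receptor 1, was 0.08 ± 0.08 (mean of 3 pairs, SE of the limma fit on 12 arrays, adjusted p = 0.663). That of Ltbr was 0.03 ± 0.08 (adjusted p = 0.896), with a sign that turned when arrays were set to equal medians. Tnfrsf1b, TNF receptor 2, read 332.5, 324.6 and 434.7 with anti-LTBR and 690.2, 554.0 and 453.5 with the combination, higher in 3 of 3 pairs but with an adjusted p of 0.103. Of the 16 tested genes of the TNF receptor superfamily and its ligands 1 rose, Tnfrsf9, the T cell costimulatory receptor 4-1BB. Its signal was 173.3, 108.4 and 140.7 with anti-LTBR and 774.1, 654.8 and 705.7 with the combination, so that the groups were far apart and each agreed within itself. That is a log2 change of 2.28 ± 0.19 or 4.84-fold (adjusted p = 6.63e-05).

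Of the 19 tested genes of receptor-proximal signalling 2 rose, Birc3, the ubiquitin ligase cIAP2, by 1.16 and Cflar, the inhibitor of caspase 8, by 0.28 on the log2 scale. A second probe set of Cflar read −0.08, so this gene is uncertain. Neither was called without number 1, and 1 was without number 2. Of 3 tested NF-kB subunits 2 rose. Relb, the partner of p52, read 396.6, 341.8 and 368.3 with anti-LTBR and 1158, 840.2 and 652.9 with the combination, without overlap, at a log2 change of 1.20 ± 0.12 (adjusted p = 2.61e-04). Rela, the main transactivating subunit of the classical pathway, rose by 0.32 ± 0.07 (adjusted p = 0.0309). Nfkb2, which encodes p100, stood at 1201, 904.5 and 811.4 with anti-LTBR and 1865, 1245 and 919.0 with the combination. Those groups overlapped, and the log2 change of 0.42 ± 0.15 did not pass (adjusted p = 0.159). Without number 1 or number 3 a single NF-kB subunit was called.

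The inhibitors that NF-kB itself induces rose in 6 of 16 tested cases, with none lower and a list median of 0.28 against 0.01 for all genes. Nfkbie, IkB epsilon, had the largest change at 1.65 ± 0.17 (adjusted p = 3.18e-04): it went from 593.0, 347.1 and 243.0 to 2118, 1254 and 613.5, which is 3.13-fold. Its groups did not overlap, and the pair numbered 3 was lowest in both. Tnfaip3, the ubiquitin-editing enzyme A20, rose by 1.07 ± 0.13 (adjusted p = 0.00106) and its partner Tnip1 by 0.70 ± 0.11 (adjusted p = 0.00369). Nfkbia, IkB alpha, went from 15614, 13092 and 11940 to 18172, 14904 and 14595, a change of only 0.23 ± 0.04 (adjusted p = 0.00719) on already high signals. For Nfkbia 4 other probe sets read between 0.52 and 0.84. Tnfaip2, a gene named for its induction by TNF, rose by 1.54 ± 0.15 (adjusted p = 2.17e-04), with a second probe set at 0.77. Of these 6 calls 2 were left without the pair numbered 1 and none without the block.

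The largest change of all lay among the chemokines. Of 9 tested CC chemokines 5 rose (Ccl5, Ccl7, Ccl2, Ccl17 and Ccl9), and of 6 tested CXC and CX3C chemokines 4 rose (Cxcl10, Cxcl16, Cxcl1 and Cx3cl1). Ccl5, or RANTES, which attracts T cells and monocytes, read 190.2, 322.9 and 268.4 with anti-LTBR and 5704, 5885 and 4115 with the combination. Every combination array exceeded every anti-LTBR array by an order of magnitude, at a log2 change of 4.29 ± 0.18 or 19.5-fold (adjusted p = 6.55e-07). Ccl2, or MCP-1, the main attractant of monocytes, went from 1426, 672.8 and 335.2 to 8410, 6166 and 4666, at 3.16 ± 0.18 or 8.95-fold (adjusted p = 3.05e-06). Ccl7, the neighbouring monocyte chemokine, changed by 3.17 ± 0.19 (adjusted p = 3.60e-06). For both monocyte chemokines the anti-LTBR arrays differed more among themselves than the combination arrays did on a ratio scale.

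Cxcl16, the ligand of CXCR6, read 587.6, 542.4 and 414.7 with anti-LTBR and 1897, 2049 and 1666 with the combination, and the replicates of each group lay close together. The change was 1.85 ± 0.11 (adjusted p = 3.05e-06). Cxcl10, a ligand of CXCR3 on activated T cells, went from 258.3, 398.4 and 459.9 to 1571, 2064 and 1187, at 2.08 ± 0.34 (adjusted p = 0.00474). Cxcl1, which attracts neutrophils, rose by 0.83 ± 0.13 (adjusted p = 0.00332), with 2 other probe sets at 1.37 and 2.02. Without the array block 2 CC chemokines and 1 CXC chemokine were called. Without number 2 there were 3 CC and 2 CXC calls, and without number 1 also 2 CXC calls.

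The organizer genes, to which the title of the series refers, rose in 4 of 12 tested cases: Icam1, Cxcl13, Relb and Vcam1. Vcam1, the ligand of the integrin VLA-4 on lymphocytes, read 4982, 5083 and 3524 with anti-LTBR and 10501, 11364 and 8981 with the combination, at 1.19 ± 0.07 or 2.29-fold (adjusted p = 3.05e-06). Icam1, the ligand of LFA-1, went from 1597, 1912 and 1028 to 4720, 5540 and 3160, at 1.57 ± 0.17 (adjusted p = 4.59e-04). In both adhesion molecules the pair numbered 3 was lowest before and after TNF, and the groups did not overlap. Other probe sets of Vcam1 read 1.46 and 1.86. Cxcl13, the B cell chemokine of lymphoid follicles, went from 136.4, 194.9 and 240.2 to 405.5, 660.0 and 509.1, at 1.42 ± 0.20 or 2.68-fold (adjusted p = 0.00243). The call of Cxcl13 was lost without number 1, where the organizer list had 3 rises, and those of Cxcl13 and Icam1 were lost without the block, which left 2.

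The other organizer genes were not called. Cxcl12, the chemokine of haematopoietic niches, stood at high signals in both groups, 16031 to 19530 with anti-LTBR and 16237 to 19134 with the combination, with a log2 change of 0.00 ± 0.03 whose sign turned under quantile normalization and without number 1 or 3. Il7, the survival cytokine of lymphocytes, went from 208.2, 182.0 and 173.8 to 258.3, 272.4 and 266.0. Its groups did not overlap, but the change of 0.48 ± 0.13 missed the threshold (adjusted p = 0.0561). Bst1, a stromal surface enzyme, was at 0.50 ± 0.13 (adjusted p = 0.0554). Tnfsf13b, the B cell survival factor BAFF, was at 0.16 ± 0.22, Pdpn, the podoplanin of lymph node stroma, at 0.11 ± 0.08, and Tnfrsf11b, the RANKL decoy osteoprotegerin, at −0.11 ± 0.10.

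Among 12 tested adhesion molecules Cd44 and Cd47 also rose, by 0.42 each on the log2 scale, and Mcam, the melanoma cell adhesion molecule found on smooth muscle, fell by 0.42. Of 22 tested cytokines and growth factors 3 rose: Il6, the inducer of acute phase proteins, by 0.76, Il15, a growth factor of NK and memory T cells, by 0.66, and Csf1, the macrophage growth factor, by 0.49. Pdgfa and Tgfb2 fell by 0.33 and 0.24. Csf1 went from 8798, 6362 and 6831 to 12061, 9721 and 9016, with an adjusted p of 3.18e-04. Without number 1 or number 2 there were 2 rises among the adhesion molecules and 1 among the cytokines. Without the block Vcam1 alone was left among the former and none among the latter.

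**Figure D2:**
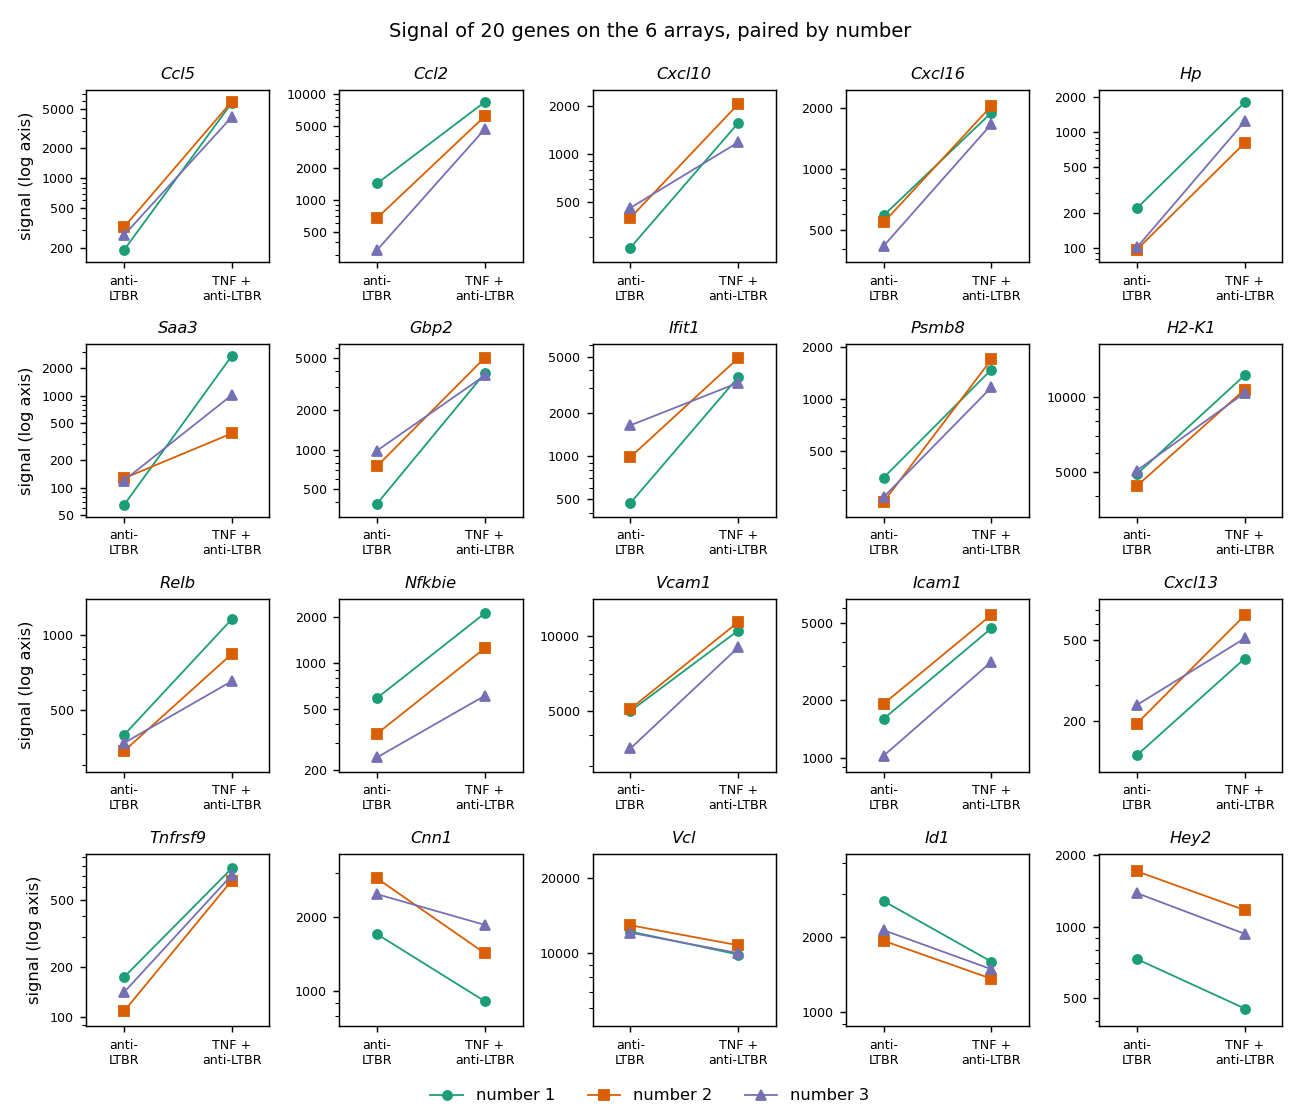
Signal (log axis, arbitrary units) of 20 genes on the 3 anti-LTBR arrays and the 3 combination arrays, with a line joining the arrays of the same number. Ccl5 runs from 190.2–322.9 to 4115–5885 without overlap, while Vcl, Cnn1, Id1 and Hey2 fall on every line.

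Acute phase genes, which the liver and inflamed tissues make in response to cytokines, rose in 6 of 9 tested cases with a list median of 0.89. Hp, or haptoglobin, went from 221.3, 97.4 and 101.5 to 1818, 810.1 and 1244, at 3.13 ± 0.22 or 8.77-fold (adjusted p = 2.18e-05). Lcn2, the iron-carrier trapping protein lipocalin 2, went from 1367, 355.4 and 784.6 to 8172, 1462 and 3658, at 2.26 ± 0.15 (adjusted p = 1.36e-05). Saa3, a serum amyloid A, varied most: 64.4, 126.3 and 119.4 with anti-LTBR and 2719, 389.6 and 1017 with the combination. Its groups were separate, but the rise on the array numbered 2 was the smallest of the 3, and the log2 change of 3.24 has an SE of 0.51 (adjusted p = 0.00381). Lbp, the lipopolysaccharide binding protein, rose by 1.31, Ptx3, a pentraxin, by 0.89 and Cp, or ceruloplasmin, by 0.75. A second probe set of Ptx3 read 0.00. Of 14 tested complement genes 3 rose: Cfb, complement factor B, by 2.03, and the C1 proteases C1s1 and C1ra by 0.62 and 0.60. Without number 1 or number 3 there was 1 rise among the complement genes. Without the block 1 acute phase gene and no complement gene was called.

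The genes commonly induced by interferons made up the largest group of rises among the lists. All 10 tested interferon-inducible GTPases, which attack the vacuoles of intracellular pathogens, rose, with a list median of 1.71. Of 37 tested antiviral effector genes 25 rose and none fell, with a list median of 1.05. Gbp2, a guanylate binding protein, read 388.8, 752.2 and 988.3 with anti-LTBR and 3863, 5068 and 3703 with the combination, at 2.64 ± 0.23 or 6.22-fold (adjusted p = 9.38e-05). Ifit1, which binds viral RNA without 2'-O-methylated caps, went from 470.8, 988.7 and 1651 to 3595, 4886 and 3279, at 2.06 ± 0.44 (adjusted p = 0.0237). In both genes the anti-LTBR array numbered 1 was the lowest, and number 3 was the highest of that group.

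Zbp1, a sensor of Z-form nucleic acids, changed by 2.85 ± 0.46 (adjusted p = 0.00406). It was dim with anti-LTBR at 54.3, 8.6 and 52.6 and read 318.9, 316.0 and 259.1 with the combination, so its fold depends on the constant of 10.3 that was added before taking log2. Oasl2, of the oligoadenylate synthetase family, rose by 2.55, Gbp3 by 2.60, Ly6e by 2.15, Ddx60 by 2.07, Bst2 or tetherin by 1.98 and Parp14 by 1.55. Across the antiviral effector genes the 12 members that were not called ranged from Ifitm1 at −0.44 to Ifi204 at 1.83. Of the 10 GTPases 3 were called without the pair numbered 1, and of the 37 antiviral effector genes 2 were, against 14 without number 2. Without the block 7 GTPases and 7 antiviral effector genes were called.

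Of 11 tested IRF and STAT factors 4 rose: Irf7 by 1.73, Stat2 by 1.05, Irf9 by 0.56 and Irf1 by 0.54. Irf7, the amplifier of type I interferon production, read 246.5, 362.7 and 619.9 with anti-LTBR and 1035, 1784 and 1169 with the combination, without overlap (adjusted p = 0.00222). Of 15 tested nucleic acid sensors and Toll-like receptors 5 rose: Ifih1 (MDA5) by 1.29, Tlr2 by 1.20, Sting1 by 0.99, Ddx58 (RIG-I) by 0.91 and Tlr3 by 0.77. None of the 11 tested cytokine signalling inhibitors, the SOCS family among them, was called by limma, at changes of −0.18 to 0.34. Across all genes limma gave 2037 at an unadjusted p under 0.05. Without the pair numbered 1 none of the IRF and STAT factors and 1 of the sensors was called.

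Promoter sequences were read for the genes that rose, since the interferon group moved together. The windows are the 250 bases before the transcription start, from RefSeq (GRCm38.p6), and 212 of the 275 genes that rose had at least 1 window, 280 in all. The interferon-stimulated response element, searched on both strands as the letters GAAA followed by any 2 bases and by GAAA again, was found in 13 of 34 windows of the called GTPase and antiviral genes (38.2%). It was found in 11.4% of the windows of all genes that rose, 2.76% of those of genes that fell, 2.49% of those of tested genes and 2.98% of all windows of that length. A kB site, searched on both strands as GGG followed by any 2 bases and by TTTCC, was in 6.07% of the windows of genes that rose, in none of the 254 windows of genes that fell, and in 1.39% of those of tested genes and 1.41% of all windows. It was also in none of the 34 windows of the called GTPase and antiviral genes. The GAS element that STAT dimers bind, searched as TTCNNNGAA, was in 6 of the 34 windows of the called GTPase and antiviral genes (17.6%). It was in 7.14% of the windows of all genes that rose, 4.33% of those of genes that fell, 5.8% of those of tested genes and 7.02% of all windows. Matches of different elements may overlap, and a match only says that these letters are in the window. A window without a match may still hold related sites with other letters, so the counts without a kB match do not show that such sites are absent.

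The windows below, 5′ to 3′ on the strand of the gene, are shown because their genes are among the rises described here and carry a match, which is in capitals. In the letters searched, the first 3 hold the interferon element and the last holds the kB element. Stretches that resemble a kB site but differ from those letters, as in the Cxcl10 window, are not marked. The matches begin 85 and 104 bases before the start of Ifit1 (chr19:34640639-34640888, plus strand), 59 bases before that of Gbp2 (chr3:142620413-142620662, plus strand), 213 bases before that of Cxcl10 (chr5:92348890-92349139, minus strand) and 43 bases before that of Tnfrsf9 (chr4:150927749-150927998, plus strand).
Ifit1: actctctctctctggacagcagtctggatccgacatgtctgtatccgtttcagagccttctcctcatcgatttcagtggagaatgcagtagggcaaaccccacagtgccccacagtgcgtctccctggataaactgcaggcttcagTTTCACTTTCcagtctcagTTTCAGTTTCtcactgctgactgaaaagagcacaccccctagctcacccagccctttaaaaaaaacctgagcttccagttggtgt
Gbp2: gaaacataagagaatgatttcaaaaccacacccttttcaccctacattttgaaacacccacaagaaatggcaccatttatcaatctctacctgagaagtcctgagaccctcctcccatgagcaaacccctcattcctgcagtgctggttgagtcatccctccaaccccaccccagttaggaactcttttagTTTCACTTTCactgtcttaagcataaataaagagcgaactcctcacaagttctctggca
Cxcl10: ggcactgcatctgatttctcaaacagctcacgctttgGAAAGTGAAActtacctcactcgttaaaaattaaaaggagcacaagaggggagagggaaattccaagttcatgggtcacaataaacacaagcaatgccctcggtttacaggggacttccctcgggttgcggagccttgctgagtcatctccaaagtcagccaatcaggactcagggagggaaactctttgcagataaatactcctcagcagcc
Tnfrsf9: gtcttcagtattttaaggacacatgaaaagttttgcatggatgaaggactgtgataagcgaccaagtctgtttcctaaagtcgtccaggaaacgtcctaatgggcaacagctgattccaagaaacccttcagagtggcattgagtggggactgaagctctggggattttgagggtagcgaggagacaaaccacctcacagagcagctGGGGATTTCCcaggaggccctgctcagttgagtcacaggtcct

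Antigen processing changed in its inducible part. The immunoproteasome replaces the catalytic subunits of the standard proteasome with Psmb8, Psmb9 and Psmb10 and trims peptides for MHC class I. These 3 subunits and Psme1, of the PA28 activator, were called higher among 5 tested genes, and the assembly factor Pomp was not, at 0.04. Psmb8 read 353.3, 256.6 and 273.1 with anti-LTBR and 1478, 1690 and 1169 with the combination, at 2.25 ± 0.22 or 4.77-fold (adjusted p = 2.00e-04). Psmb9 rose by 1.86, Psmb10 by 1.77 and Psme1 by 0.63. The call of Psmb9 was lost without number 1 or number 2, while Psmb8 and Psmb10 kept theirs each time. Of 33 tested genes of the constitutive proteasome none was called, with a median of 0.02 and a range of −0.19 to 0.15.

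Of 12 tested genes of MHC class I and peptide loading 9 rose, with a list median of 0.79. H2-K1, a classical class I heavy chain, went from 4912, 4404 and 5079 to 12271, 10747 and 10426, at 1.21 ± 0.07 or 2.32-fold (adjusted p = 3.05e-06). H2-D1, the other classical heavy chain tested, rose by 1.41 ± 0.11. Class I heavy chains share much of their sequence, so the probe sets may not separate them fully. Other probe sets read 1.10 to 2.49 for H2-K1 and 0.65 to 1.68 for H2-D1. Tapbp, or tapasin, rose by 1.03, Erap1, the peptide trimming enzyme, by 1.08 and the transporter Tap1 by 0.87, while B2m, already at 13229 to 15486 with anti-LTBR, rose by 0.21. The general chaperones Calr, Canx and Pdia3 were at 0.09, 0.03 and 0.00. Of 5 tested class II genes 1 rose, Cd74, the invariant chain, from 143.7, 183.1 and 129.8 to 369.9, 418.4 and 296.9, at 1.20 ± 0.22 (adjusted p = 0.00946). Without the pair numbered 1 the class I count was 4, and Cd74 was not called.

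Of 20 tested genes of apoptosis, pyroptosis and necroptosis 5 rose: Mlkl, the executioner of necroptosis, by 0.95, Gsdmd, the pore former of pyroptosis, by 0.90, Casp4, the receptor of cytosolic lipopolysaccharide, by 0.71, Pycard by 0.64 and Bid by 0.51. Without the pair numbered 1 none of these 5 was called, and without number 2 there were 2. The survival genes Bcl2, Bcl2l1 and Mcl1 were at 0.04, −0.07 and −0.11 and not called. Of 8 tested metallothioneins and zinc transporters 2 rose, the metal-binding Mt2 by 1.21 ± 0.10 and Mt1 by 0.90 ± 0.12. Of 16 tested antioxidant and nitric oxide genes 2 rose: Gch1, the first enzyme of tetrahydrobiopterin synthesis, by 1.31 and Sod2, the mitochondrial superoxide dismutase, by 0.62. Among 9 tested prostanoid and endothelin genes 1 rose, the prostaglandin receptor gene Ptger4 by 0.54, and among 21 tested matrix proteases and inhibitors 1, Timp1, by 0.30. The share called in the matrix protease list, 4.76%, is near the 4.21% of all genes. Of 19 tested immediate early genes 3 rose, Fosl1 by 0.73, Junb by 0.62 and Maff by 0.54, and 1 fell. None of these immediate early genes was called without number 1 or number 2, Ptger4 was lost whichever number was left out, and Timp1 was lost without number 1 or 3.

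**Figure D3:**
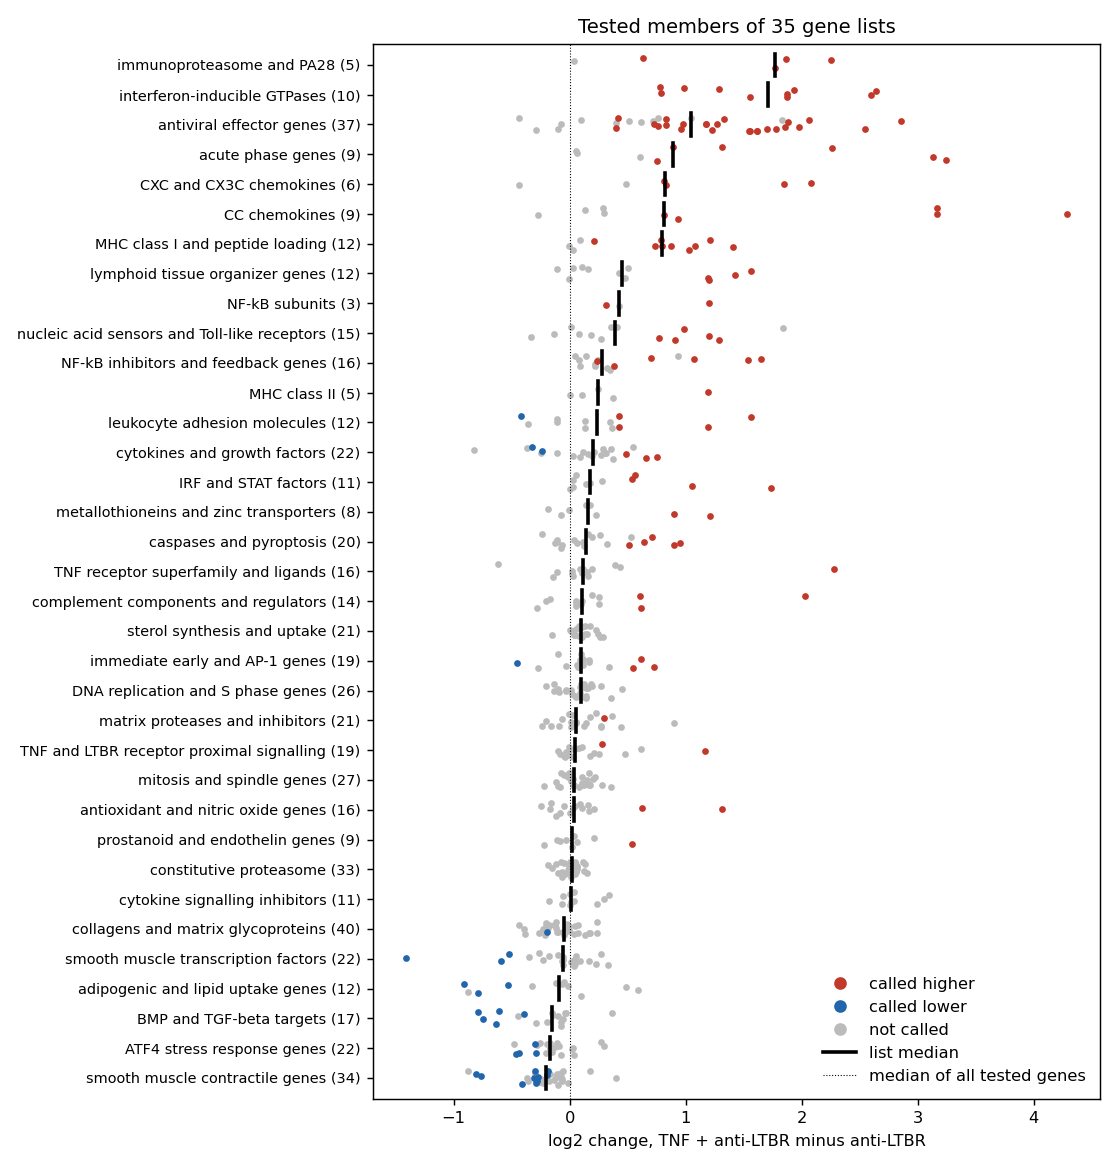
Log2 change by TNF in the presence of anti-LTBR for the tested members of 35 gene lists, 1 point per gene (vertical jitter only), with the number tested in brackets and a bar at the list median. The immunoproteasome, GTPase and antiviral lists have medians of 1.77, 1.71 and 1.05, the contractile list has the lowest at −0.20, and the dotted line marks the median of all tested genes.

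The contractile genes of smooth muscle went the other way by small amounts. Of 34 tested members 10 fell and none rose, and 32 of 34 had a negative change, with a list median of −0.20. Cnn1, or calponin, a marker of the contractile state, read 1699, 2845 and 2460 with anti-LTBR and 912.8, 1424 and 1852 with the combination, at −0.76 ± 0.15 (adjusted p = 0.0130). Its groups overlapped because the pair numbered 1 was low in both, while all 3 pairs fell. Vcl, or vinculin, of focal adhesions, went from 12216, 12945 and 12089 to 9874, 10762 and 10004 without overlap, at −0.28 ± 0.04 (adjusted p = 0.00381). Tpm2, a tropomyosin, fell by 0.29 and Csrp1 by 0.28, with another probe set of Tpm2 at 0.08. Acta1 fell by 0.81, Myl9 by 0.42, Myh11 by 0.31, Fhl2 by 0.30, Itga8 by 0.20 and Tagln by 0.19. Acta2 was at −0.02 ± 0.04 and was not called. In such bulk samples fewer smooth muscle cells and less RNA per cell cannot be told apart. The summed signal of 7 smooth muscle markers was 34355, 38908 and 39886 with anti-LTBR and 29620, 34672 and 38354 with the combination. It was lower with the combination in each of the 3 pairs. The sum includes Cnn1, Myh11 and Tagln, which are among the 10 falls, so it is not a separate measure of smooth muscle content. The part of cell content in these falls was not tested. Without the pair numbered 1 none of the 10 falls was called, without number 2 there were 3, and without the block none.

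Transcription factors and targets of the BMP and Notch pathways, which guide smooth muscle identity, also fell in part. Of 22 tested smooth muscle transcription factors 3 fell: Hey1 by 1.41, Hey2 by 0.60 and Mef2c by 0.52. Hey2, a Notch target of arterial cells, read 729.5, 1714 and 1386 with anti-LTBR and 451.0, 1175 and 932.9 with the combination. Its groups overlapped, but the 3 pairs fell alike, at −0.60 ± 0.08 (adjusted p = 0.00137). Hey1 was dim, at 227.1, 115.6 and 83.4 with anti-LTBR and 60.8, 31.6 and 40.1 with the combination. Myocd, the coactivator of contractile genes, was at −0.26 and Klf4, its antagonist, at −0.18, neither called. Without the pair numbered 1 Hey1 did not pass the filter and Hey2 and Mef2c were not called, and without number 2 there was 1 fall.

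Of 17 tested BMP and TGF-beta targets 5 fell and 16 of 17 had a negative change, with a list median of −0.15. Id1, an inhibitor of bHLH factors and a direct BMP target, went from 2799, 1938 and 2139 to 1598, 1365 and 1490 without overlap, at −0.61 ± 0.09 (adjusted p = 0.00263). Bambi, a pseudoreceptor that dampens the pathway, went from 552.3, 544.0 and 574.3 to 339.5, 277.0 and 372.5, also without overlap, at −0.75 ± 0.09 (adjusted p = 8.48e-04). Atoh8 fell by 0.79, Id4 by 0.64 and the inhibitory Smad6 by 0.40. Ltbp2 was the member with a positive change, at 0.37, and was not called. Without number 2 there were 2 falls and 1 rise, without number 3 there were 3 falls, and without the block 1. The call of Id1 was lost without number 1, and that of Id4 without number 2 and with the mean of probe sets. Bambi kept its call each time.

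Among 12 tested adipogenic and lipid uptake genes 3 fell: Cebpa by 0.91, Lpl, or lipoprotein lipase, by 0.79 and the fatty acid binding protein gene Fabp5 by 0.53. Lpl read 662.5, 564.3 and 652.9 with anti-LTBR and 355.2, 279.2 and 454.1 with the combination, without overlap (adjusted p = 0.00105). Cebpa stood close to the threshold (adjusted p = 0.0499) and was lost whichever number was left out, which left 2 falls each time, and without the block none of the 3 was called. Of 22 tested genes of the ATF4 stress response 4 fell, Chac1 by 0.46, Vldlr by 0.44, Atf4 itself by 0.30 and Phgdh by 0.29, and without the pair numbered 1, number 3 or the block none was called, and without number 2 there were 2. Of 40 tested collagens and matrix glycoproteins 1 fell, Col8a1 by 0.19, with a list median of −0.05. That is 2.5% called, against 4.21% of all genes. Sterol genes gave no limma call among 21, with a median of 0.10.

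The largest single falls lay partly outside those lists. Chdh, choline dehydrogenase, had the largest log2 fall at 1.88, but it read 9.9 and 9.6 on the combination arrays numbered 1 and 2, near the added constant, and 68.8 on number 3. Sost, which encodes the Wnt inhibitor sclerostin, read 226.2, 2481 and 3715 with anti-LTBR and 124.2, 464.1 and 1147 with the combination, so that all pairs fell while the groups overlapped, at −1.63 ± 0.24 (adjusted p = 0.00266). Maz, a zinc finger factor, fell by 1.24, and the cartilage genes Col9a1 and Acan fell by 1.04 and 0.98. Plagl1, an imprinted zinc finger gene, fell by 0.98, G0s2, an inhibitor of lipolysis, by 0.94 and Fgl2 by 0.89. The calls of Maz and Plagl1 were lost without number 2 or number 3, those of Acan and Fgl2 without number 1 and that of Chdh without number 2 (it passed the filter on low signals in no other fit with a number left out), and all 8 were lost without the block.

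Few markers of other cell types were called. Of 11 tested macrophage and monocyte markers 1 rose, Laptm5, by 0.44, with 9 of 11 changes positive. Of 12 tested endothelial markers 1 fell, Erg, by 0.53. Of 7 tested fibroblast markers Pdgfra rose by 0.54 and Cd34 fell by 0.22. Pdgfra, the PDGF receptor alpha of mesenchymal cells, went from 3069, 2901 and 2539 to 5957, 3521 and 3322, without overlap and with the largest rise on the pair numbered 1 (adjusted p = 0.0101). None of these 4 was called without the pair numbered 1 or without the block.

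The effect of TNF with the antibody was then set beside its effect without it, from the TNF and PBS arrays. The log2 changes of these comparisons share no array, but the same fit of 12 arrays gave both. They share the block and the residual variance of each gene, so their calls are not independent. TNF against PBS raised 330 genes (2.69%) and lowered 245 (1.99%), 575 in all (4.68%). With arrays set to equal medians the split was 305 higher and 121 lower. Of the 275 genes raised with the antibody 176 were also raised without it, which is 64% of the first list and 53.3% of the second. Of the 242 genes lowered with the antibody 104 were also lowered without it, which is 43% and 42.4%. No gene was called in opposite directions. Over all 12285 genes, which are not independent replicates and share their array numbers, the log2 effects had a Pearson r of 0.552 (Spearman rho 0.337). Over the 812 genes called in either comparison r was 0.876. Those genes were chosen by the same effects, which favours a high r.

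**Figure D4:**
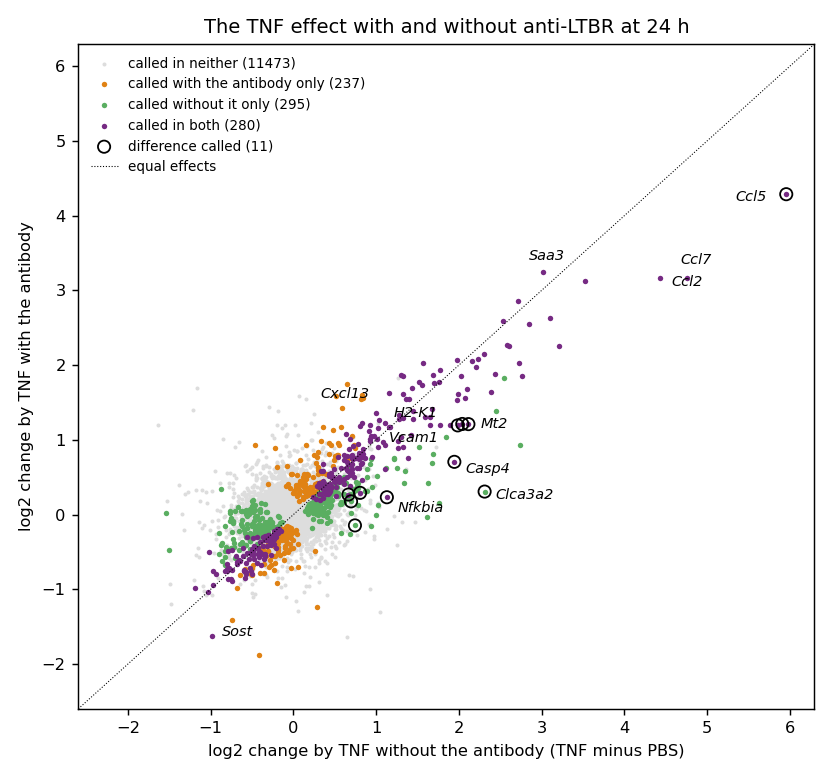
Log2 change by TNF without the antibody (horizontal axis) and with it (vertical axis), 1 point per tested gene, coloured by the comparison in which it was called, with a dotted line of equal effects. The 280 genes called in both have a colour of their own, and the 11 circled genes, whose difference itself was called, lie below the line.

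The interferon-type and contractile groups moved the same way with and without the antibody. The 10 GTPases had a median of 1.71 with it and 1.41 without it, the antiviral effector genes 1.05 and 1.03, with 25 of 37 called in each, and the immunoproteasome list 1.77 and 1.70. The contractile genes had medians of −0.20 and −0.25, with 10 and 11 of 34 lower. No gene of these 4 lists was called in the test of the difference itself, which called 11 genes in all (0.0895%) and had 908 at an unadjusted p under 0.05. Cxcl13 was called with the antibody and not without it, at 1.42 against 0.59, but the difference of 0.84 ± 0.29 was not called (adjusted p = 0.542). The same holds for Pdgfra, at 0.54 against 0.13 (adjusted p of the difference = 0.538), and for Fosl1, at 0.73 against 0.07 (0.556).

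The cell cycle genes had different medians in the comparisons. Of 27 tested mitosis and spindle genes TNF with the antibody changed none by limma, with a median of 0.04, while TNF without the antibody lowered 12, with a median of −0.50. Mki67, the proliferation marker, read 765.8, 1117 and 620.4 with anti-LTBR and 672.8, 1304 and 544.3 with the combination, which overlap, at −0.05, against −0.76 for TNF without the antibody (adjusted p = 0.00909). Top2a was at 0.20 and −0.49. All 27 genes had a larger value with the antibody, but none was called for the difference, whose median was 0.58. Of 26 tested replication genes TNF lowered none with the antibody and 4 without it, with medians of 0.09 and −0.29. Without the pair numbered 1 none of the 12 mitosis genes was called for TNF without the antibody, and without number 3 only 1 was.

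The 11 genes called in the difference all had a smaller log2 effect of TNF when the antibody was present. These calls depend on having all 3 numbers: without number 1 there were 3, Nfkbia and Clca3a2 among them, without number 2 or number 3 there was 1, and without the block none. Of the 11 genes 9 lost the call whichever number was left out and Clca3a2 lost it without number 2 or 3, while Nfkbia kept it each time. Nfkbia had the smallest adjusted p of the difference, 5.20e-05. It read 7377, 6636 and 5623 with PBS, 16733, 13529 and 12787 with TNF, 15614, 13092 and 11940 with anti-LTBR and 18172, 14904 and 14595 with both. TNF raised it by 1.13 ± 0.04 without the antibody and by 0.23 ± 0.04 with it, a difference of −0.90 ± 0.06, and the mean signal was 13549 with the antibody alone against 14350 with TNF alone. Clca3a2, a calcium-activated chloride channel regulator, had the largest difference at −2.005 ± 0.231 (adjusted p = 0.00789). It read 1872, 244.0 and 224.8 with PBS, 6343, 1605 and 1334 with TNF, 7568, 2055 and 1678 with anti-LTBR and 9346, 2525 and 2103 with both. The array numbered 1 was highest in each of the 4 groups, and the change of 0.31 by TNF with the antibody was not called.

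Casp4 rose by 1.95 without the antibody and 0.71 with it, from 269.6 ± 21.3 (SD, n = 3) with PBS, 1074 ± 160 with TNF and 786.2 ± 87.7 with anti-LTBR to 1284 ± 54.4 with both. Vcam1 rose by 1.99 and 1.19, H2-K1 by 2.04 and 1.21 and Mt2 by 2.12 and 1.21. For these 4 genes the mean signal was highest with both agonists. Anxa8, an annexin, Ctps, of CTP synthesis, Tmem176b and Itpripl2 were also called, with differences of −0.89, −0.52, −0.52 and −0.40. These 4 were named after their values were seen.

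The scale matters for Ccl5. It read 13.2, 10.1 and 17.0 with PBS, near the constant of 10.3 that was added before taking log2, and 1471, 1535 and 1366 with TNF. On the log2 scale TNF added 5.96 ± 0.18 without the antibody and 4.29 ± 0.18 with it, a difference of −1.67 ± 0.26 (adjusted p = 0.0458). In units of signal TNF added 1444 ± 88.8 without the antibody and 4974 ± 977 with it (SD over 3 numbers), more with the antibody in all 3 numbers. Vcam1 also gained slightly more signal with the antibody, 5752 ± 459 against 5489 ± 501. In the other 9 genes the mean change was smaller with the antibody, for example Nfkbia with 2342 ± 462 against 7805 ± 1350 and H2-K1 with 6350 ± 1006 against 7430 ± 460.3, and Anxa8 lost signal with the antibody, −139 ± 63.4 against 566 ± 182. With a larger constant, the 25th percentile of all signals (36.2), the log2 difference of Ccl5 was −0.75 and was not called (adjusted p = 0.480).

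**Figure D5:**
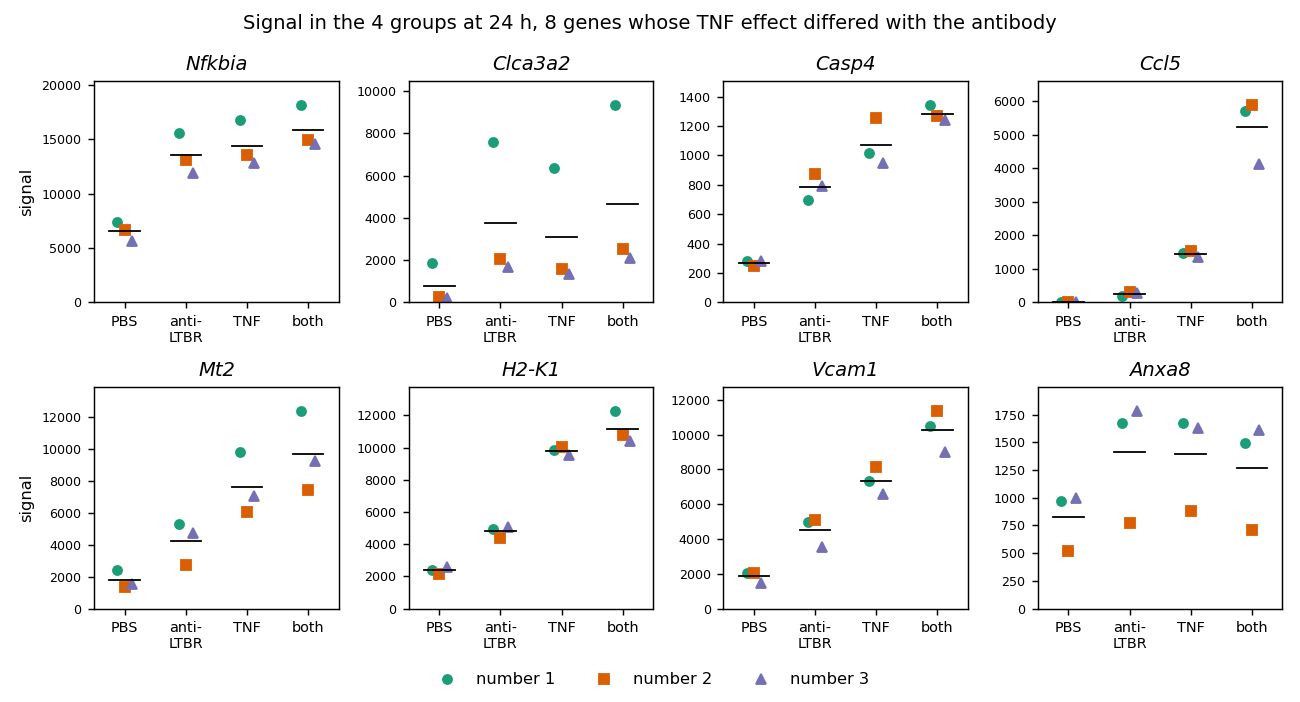
Signal (linear axis from 0, arbitrary units) of 8 genes in the 4 groups at 24 h, 1 symbol per array number and a line at the mean of 3. Nfkbia is about as high with anti-LTBR (mean 13549) as with TNF (mean 14350), whereas Ccl5 reaches a mean of 5235 with both agonists against 1457 with TNF and 260.5 with anti-LTBR.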

How the data were processed

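The submitters deposited 1 table of array intensity values (probe set signals on a linear scale) for the series. The authors computed these intensities with GCOS 1.4, per the submitters' processing notes, and each array's mean signal without the top and bottom 2% is 500. No source used here gives the summarization settings. Of 45101 probe sets 34945 carry 1 gene symbol, 932 several and 9160 none, and 34741 of the first were brought to current RefSeq symbols (GRCm38.p6) through their Entrez ID.

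Before log2 was taken, 10.3 was added to each signal, the value below which 10% of the signals lie on the 12 arrays at 24 h numbered 1 to 3. A probe set had to exceed the median of its array on at least 3 of 12 arrays (24610 did), and the brightest passing probe set stood for its gene, which left 12285 genes. limma 3.58.1 in R 4.3.3 fitted 4 groups and the array number as a block, with 6 residual degrees of freedom and a trend of the variance on the mean. P-values were adjusted by Benjamini-Hochberg over all 12285 genes, and a call is an adjusted p under 0.05. A value after ± is the SE of the log2 change unless SD is named. This SE comes from the limma fit of the 12 arrays and is not the spread of the 3 pairs. Fold changes come from the log2(signal + 10.3) scale and understate those of dim genes.

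The numbers in the titles pair the arrays: deviations from the group means correlated at 0.46 to 0.72 between same-numbered arrays and at −0.49 to 0.04 between others, and 12 of 12 arrays correlated best with their own number. On simulated data from the same 12285 genes, for the combination against anti-LTBR, 85% of genes changed by 1 and 100% of those changed by 2 on the log2 scale were called, with 5.13% false among the calls. The simulated noise was drawn independently for each gene and array. Shifts that many genes of an array share were therefore not covered. The number of arrays limits the precision.

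Genes were named by this rule: the 15 largest rises and the 10 largest falls with 1 sign in all 3 pairs, the called members of each list that had the smallest adjusted p (up to 3), the receptors Tnfrsf1a, Tnfrsf1b and Ltbr, every tested organizer gene, and the 5 largest and the 5 smallest differences of the TNF effect. Other called list members are given by their change only. Ifit1, Cnn1, Tnip1, Acta2, Mki67 and Top2a were singled out after their values were seen. The members and lists were chosen with earlier results of these data known, so list counts are descriptions. Alternatives covered the block, the arrays fitted, scaling, the added constant, the filter, the variance model, the choice of probe set and leaving out each number.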

Additional observations from a re-analysis of the deposited data

Results flagged for a closer look

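The effect of TNF on 11 genes differed between cells with and without anti-LTBR by the test of the difference itself (limma, array number as a block), with the log2 effect smaller in the presence of the antibody in all 11. The differences, with the antibody minus without it, were −2.005 for Clca3a2, −1.67 for Ccl5, −1.24 for Casp4, −0.91 for Mt2, −0.90 for Nfkbia, −0.89 for Anxa8, −0.83 for H2-K1, −0.79 for Vcam1, −0.52 for Ctps, −0.52 for Tmem176b and −0.40 for Itpripl2. Nfkbia alone has an adjusted p of the difference under 0.001, at 5.20e-05. Without number 1 only Nfkbia and Clca3a2 of these 11 kept the call, without number 2 or number 3 only Nfkbia, and without the block none. In units of signal, 2 of the 11 genes, Ccl5 and Vcam1, gained more with the antibody than without it, and in 9 the mean change was smaller, with Anxa8 lower by TNF in the presence of the antibody (−139 ± 63.4, SD, 3 numbers). For Mt2 the gains were close, 5425 ± 1418 with the antibody and 5857 ± 1369 without it (SD, 3 numbers), and 1 number went the other way. A second probe set of Clca3a2 read 0.46 for TNF in the presence of the antibody, against 0.31 for the one used. The other passing probe sets of Anxa8, H2-K1, Nfkbia and Vcam1 also had smaller effects with the antibody, by varying amounts. The closest were 1.52 with it and 1.70 without it for H2-K1, and 0.655 and 0.813 for Nfkbia. With the mean of probe sets the difference calls of Anxa8, Ccl5, H2-K1, Tmem176b and Vcam1 were lost.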

How the results depend on the processing

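Without the replicate block 55 genes were called higher, 1 lower, 62 for TNF against PBS and none for the difference, where 142 had an unadjusted p under 0.05 by limma. All 56 of these calls of the combination against anti-LTBR were also made with the pairing. Without a variance trend the counts were 162, 98, 319 and 1, and with equal medians 180 genes were higher and 210 lower, while the median of all genes moved to −0.04. Leaving out 1 number gave 50 to 188 higher, 41 to 108 lower, 161 to 336 for TNF against PBS and 1 to 3 for the difference. With 15 arrays 345 were higher and 349 lower. The difference also gave 2 with 15 arrays, which add those numbered 0, where Pecam1 reached 5653, and 7 each with quantile normalization, with no filter and with the mean of probe sets. The sign of Cxcl12 turned with quantile normalization (0.043), with the mean of probe sets (0.094) and between −0.029 and 0.01 as 1 number was left out, and that of Ltbr with equal medians (−0.016) and between −0.051 and 0.082 as 1 number was left out. The cause was not tested. Without a variance trend 15 of the antiviral effector genes, 2 of the contractile genes and none of the ATF4 genes were called. Of 113 gene results 28 kept their direction and lost no call in any setting. Genes without a call in the main fit, which had none to lose, are among these 28. For the combination against anti-LTBR, Clca3a2, Il7 and Tnfrsf1b of these were called in some setting (smallest adjusted limma p 0.0168, 0.0332 and 0.039). Dim genes near the added constant (Zbp1, Chdh, Ccl5 with PBS) have the least certain folds.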

Other observations

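Genes of cartilage were gathered into a list after their values were seen, so the counts below are descriptions. Of 27 tested genes of cartilage matrix and chondrocytes, 11 fell when TNF was added to anti-LTBR and none rose, against 1.97% lower among all genes, with a median log2 change of −0.46 and 25 of 27 changes negative. Acan, the main cartilage proteoglycan, read 3088, 1043 and 1607 with anti-LTBR and 1158, 727.1 and 790.0 with the combination. Col9a1 went from 3126, 795.8 and 3327 to 1585, 328.7 and 1775. All 3 pairs fell in both genes although the groups overlapped. Cytl1, a cartilage cytokine, fell by 0.87, Fgfr3, a brake on chondrocyte growth, by 0.73, Cnmd, or chondromodulin, by 0.72, Col11a1 by 0.59, the small proteoglycan genes Aspn and Omd by 0.54 and 0.45, S100b by 0.51 and Comp by 0.45, beside Sost. Sox9, the master factor of cartilage, was at −0.22 and Col2a1 at −0.22, neither called. Col2a1 was bright in both groups, at 12123 to 18982 with anti-LTBR and 10336 to 15635 with the combination. Cnmd differed strongly between numbers, at 2458, 118.4 and 480.6 with anti-LTBR. TNF without the antibody lowered 10 of the 27, with a median of −0.37, and none was called for the difference. Without number 1 there were 4 falls with the antibody among 24 tested, and without the block none among 27.

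Lists of Notch and of hypoxia genes were also made after the values were seen. Of 16 tested Notch genes 4 fell, the targets Hey1, Hey2 and Hes1 (by 1.41, 0.60 and 0.56) and the ligand Jag1 (by 0.21), while Notch3 was at −0.32 and not called, against 1.97% lower among all genes. Without number 2 or number 3 there were 2 falls, and without the block none. Without number 1 there was also none, among 14 tested genes that did not include Hey1. Of 27 tested hypoxia and glycolysis genes 7 rose: Ndufa4l2 by 1.05, the lactate carrier Slc16a3 by 0.79, the carbonic anhydrase Car9 by 0.77, Ak4 by 0.67, P4ha2 by 0.55, Bnip3 by 0.38 and Pfkl by 0.35, against 2.24% higher among all genes. Without number 2 there were 3 rises, without number 3 there were 6, and without number 1 or the block none. Slc2a1, the main glucose transporter, was at 0.01 and Vegfa at 0.20, neither called. Among the genes on none of the lists, Il18bp, the inhibitor of IL-18, rose from 86.9, 123.1 and 106.1 to 289.9, 410.5 and 382.2, and Slfn2, a growth regulator of the Schlafen family, rose by 1.74, against 0.65 without the antibody, with an uncalled difference (adjusted p = 0.558).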
